A study of Mus musculus with 32 samples.

Results

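The insulin-like growth factor (IGF) axis was followed as 9 genes, chosen by name: the ligand Igf1, the receptors Igf1r and Igf2r, and the binding proteins Igfbp2, Igfbp3, Igfbp4, Igfbp5, Igfbp6 and Igfbp7. Of these, 5 had a row among the 11818 genes of the deposited count table, namely Igf1r, Igf2r, Igfbp4, Igfbp6 and Igfbp7. The other 4, Igf1, Igfbp2, Igfbp3 and Igfbp5, were not analysed here, and nothing is said of their level. Every gene of the table had at least 1 count in every library.

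IGF ligands bind IGF1R, a receptor tyrosine kinase that passes the signal on through IRS adaptors to the PI3K-AKT and RAS-MAPK cascades. IGF2R, the cation-independent mannose 6-phosphate receptor, has no kinase: it takes IGF-II to the lysosome and sorts lysosomal enzymes. Most circulating and pericellular IGF is held by IGF binding proteins, which are cut by proteases such as PAPP-A, the main IGFBP4 protease. IGFBP6 prefers IGF-II, and IGFBP7 binds IGFs weakly and is known as a secreted matrix-associated protein. In the lung, fibroblasts are a well known source of IGF-I and of several binding proteins.

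The genes were measured by bulk RNA sequencing of mouse lung organoids. CD31-/CD45-/Epcam+ cells of C57BL/6 J mice aged 8 to 14 weeks were mixed in equal number, 300000 of each, with CCL206 cells, a mouse lung fibroblast line that had been treated with mitomycin C to stop its proliferation. The cultures received vehicle, extracellular vesicles (EVs, 1000000000 per mL), soluble factors (SFs, 30 µg/mL) or recombinant human osteoglycin (OGN, 10 µg/mL) for 72 h. EVs and SFs came from the human fetal lung fibroblast line MRC5, and OGN is a small leucine-rich proteoglycan. The cells were then sorted again by Epcam microbeads. Cells of 4 mice went through each of the 4 conditions, and both fractions were sequenced, which gave 8 groups of 4 libraries and 32 libraries in all. All 8 groups were therefore co-cultures in Matrigel, the vehicle groups included. Per the study's methods, the organoid medium held added insulin, transferrin and selenium. It also held fetal bovine serum, epidermal growth factor and bovine pituitary extract. CCL206 is 1 cell line, so the mouse number of a fibroblast library names the animal whose epithelial cells shared the culture, and the spread between fibroblast libraries is one between cultures.

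Libraries held 1805914 to 17675454 counts (median 5901652). The lowest count of any of the 5 genes in any library was 35, for Igfbp6 in an SF-treated Epcam+ library, and counting error was thus largest for this gene. The fractions were enriched and not pure. With vehicle, the median level of 7 epithelial markers in Epcam+ libraries was 1967 ± 619% of that in the fibroblasts (SD, n = 4), and the median of the 9 measured fibroblast markers of the study's list of 10 was 21.7 ± 4.3%. Among the fibroblast libraries, those given EVs with cells of mice 2 and 4 stood apart by the steepest change along transcript length, with short transcripts high and long transcripts low. The trend ran the same way, less steeply, in those of mice 1 and 3. For the 5 genes, the change with EVs in fibroblasts is therefore given with and without these 2 libraries. In bulk RNA, a change in the number of cells of a type and a change in RNA per cell cannot be told apart.

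The 5 genes lie on different chromosomes. In the RefSeq annotation of GRCm38.p6, Igf1r lies at chr7:67952257-68233668 on the plus strand, Igf2r at chr17:12682406-12769706 on the minus strand, Igfbp4 at chr11:99040005-99052655 on the plus strand, Igfbp6 at chr15:102144186-102149512 on the plus strand and Igfbp7 at chr5:77349240-77408045 on the minus strand. In GENCODE M39, exons of Igfbp7 overlap those of Polr2b, a subunit of RNA polymerase II, on the other strand. Whether strand was used in counting is not given in the sources used here, so reads of these 2 genes may be mixed. The exons of Igf1r overlap those of Pgpep1l on the other strand, which had no row in the table, and no such overlap was found for the other 3.

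The promoters of the 3 binding proteins and of Igf2r are shown because these transcripts had the 4 largest of the 5 changes called for the IGF axis in EV-treated fibroblasts, the binding proteins higher and Igf2r lower. Igf1r, with the smallest of the 5, is described without its sequence. Each sequence is from RefSeq, GRCm38.p6, and runs 5′ to 3′ on the strand of the gene from 250 bases before to 50 bases after the start that the set uses. Capitals mark matches on either strand. The motif searched as a TATA box was TATAAA. The E-box was searched as CACGTG, and with 1 flanking base on each side, within which the shorter motif lies, as TCACGTGA. The GC box searched was GGGCGG.
Igfbp4, chr11:99040994-99041293, plus strand: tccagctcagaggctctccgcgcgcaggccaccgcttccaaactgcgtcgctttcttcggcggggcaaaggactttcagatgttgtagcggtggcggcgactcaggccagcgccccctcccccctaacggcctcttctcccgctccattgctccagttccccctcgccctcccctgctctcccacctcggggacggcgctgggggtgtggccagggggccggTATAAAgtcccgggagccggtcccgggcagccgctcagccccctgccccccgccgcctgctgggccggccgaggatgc
Igfbp6, chr15:102143936-102144235, plus strand: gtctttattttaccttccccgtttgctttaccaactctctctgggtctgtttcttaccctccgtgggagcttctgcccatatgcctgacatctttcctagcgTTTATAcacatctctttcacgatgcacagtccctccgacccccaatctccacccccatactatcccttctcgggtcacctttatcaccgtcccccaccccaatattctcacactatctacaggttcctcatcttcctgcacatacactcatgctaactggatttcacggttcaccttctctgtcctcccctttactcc
Igfbp7, chr5:77407996-77408295, minus strand: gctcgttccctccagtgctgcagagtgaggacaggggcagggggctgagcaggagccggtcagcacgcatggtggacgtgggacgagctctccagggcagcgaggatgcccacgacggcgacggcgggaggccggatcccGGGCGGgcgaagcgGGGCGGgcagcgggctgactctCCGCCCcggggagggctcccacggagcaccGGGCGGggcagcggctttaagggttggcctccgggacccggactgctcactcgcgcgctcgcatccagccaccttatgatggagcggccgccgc
Igf2r, chr17:12769657-12769956, minus strand: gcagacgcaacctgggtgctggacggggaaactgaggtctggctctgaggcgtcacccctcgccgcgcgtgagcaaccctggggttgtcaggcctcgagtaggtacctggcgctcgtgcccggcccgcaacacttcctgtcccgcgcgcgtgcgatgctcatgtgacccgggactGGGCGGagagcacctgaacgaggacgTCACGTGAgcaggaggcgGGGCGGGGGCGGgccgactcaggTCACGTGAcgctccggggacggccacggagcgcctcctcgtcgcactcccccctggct

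The Igfbp4 window held TATAAA 28 bases before the start, and the Igfbp6 window held it on the other strand 148 bases before the start. TATAAA was found in 6.78% of the 9166 promoters matched to genes of the table. Igfbp7 had 4 GC boxes, which 66.9% of promoters held at least once, and neither Igfbp4 nor Igfbp6 had one in this window. The start used for Igfbp4 lies inside the span that RefSeq gives the gene. Igf2r held 3 GC boxes and 2 copies of TCACGTGA, 49 and 8 bases before the start, a sequence found in 2.07% of promoters (CACGTG alone in 10.4%). The Igf1r window, which is not printed, held 2 GC boxes and none of the other letters. The windows are rich in G and C, with 70.7% to 76%, except that of Igfbp6 with 49.7%. These matches describe the sequences. Binding was not measured.

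With vehicle, all 5 transcripts were measured in both fractions, and 4 of them were lower in Epcam+ cells than in fibroblasts. Igfbp4 had 85.3, 118, 82.7 and 134 CPM (the count of a gene relative to the library's total, scaled by TMM over all 32 libraries) in the vehicle-treated Epcam+ libraries of mice 1 to 4. The fibroblast libraries had 280, 316, 321 and 332 CPM. The groups did not overlap, and each Epcam+ library had 25.8% to 40.4% of the level of the fibroblast library from the same culture. The log2 difference was -1.60 (SE 0.14, edgeR adjusted p = 9.3e-11).

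The receptors were also lower in Epcam+ cells. Igf2r was at 508.2 ± 50 CPM in Epcam+ cells and at 1012.5 ± 36.4 CPM in fibroblasts (SD, n = 4), a log2 difference of -1.004 (SE 0.16, edgeR adjusted p = 5.2e-06). Igf1r was at 101 ± 12.9 CPM and 161 ± 13.8 CPM, a log2 difference of -0.69 (SE 0.10, edgeR adjusted p = 6.0e-07). Neither gene had overlapping groups. Of the binding proteins, Igfbp7 was at 59.7 ± 5.10 and 81.5 ± 16.3 CPM, with overlapping groups but the lower value in Epcam+ cells in 4 of 4 mice, a log2 difference of -0.44 (SE 0.15, edgeR adjusted p = 0.011). This call was lost without mouse 2 (-0.35, edgeR adjusted p = 0.067) or mouse 3 (-0.34, edgeR adjusted p = 0.12). Igfbp6 did not pass the test, with 28.2 ± 7.47 and 34.8 ± 3.71 CPM and a log2 difference of -0.33 (95% CI -0.70 to 0.04, edgeR adjusted p = 0.10). It did pass in 5 of 13 alternatives, among them the one without mouse 4 (-0.50, edgeR adjusted p = 0.033). Over the 13 the log2 difference was -0.64 to -0.24.

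These 4 calls of 5 stand beside 69.4% of all genes called between the fractions (34.3% lower and 35.1% higher in Epcam+ cells), so a call is common here. The ratios differed in size. Igfbp4 in Epcam+ cells was at 33.5 ± 6.6% of the fibroblast level, Igf2r at 50.2 ± 5.4%, Igf1r at 63.1 ± 12.1%, Igfbp7 at 76.0 ± 19.1% and Igfbp6 at 81.1 ± 19.5% (SD, n = 4). Of the 9 measured markers of the study's fibroblast list, 8 were called lower in Epcam+ cells and 1 higher. Among fibroblast markers, Col1a2, a fibrillar collagen chain, was at 22.5 ± 4.0% and Pdgfra, a PDGF receptor of mesenchymal cells, at 14.6 ± 2.4%. What part of the Epcam+ level of each IGF axis gene came from fibroblasts left in the fraction was not tested.

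Levels of different genes were compared per kilobase of the median transcript length in GENCODE M39. Igf2r had the highest level per length with vehicle, 57.3 ± 5.6 CPM per kb in Epcam+ cells and 114 ± 4.1 in fibroblasts. In fibroblasts Igfbp4 followed with 81.5 ± 5.9 CPM per kb, then Igfbp6 with 31.95 ± 3.4, Igfbp7 with 16.05 ± 3.2 and Igf1r with 13.0 ± 1.1. In Epcam+ cells Igfbp4 (27.4 ± 6.6 CPM per kb) and Igfbp6 (25.9 ± 6.9) lay within each other's spread, followed by Igfbp7 (11.8 ± 1.0) and Igf1r (8.08 ± 1.04). The place of Igfbp7 in this order depends on its length, because its coding transcripts run from 1133 to 5339 nt.

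**Figure D1:**
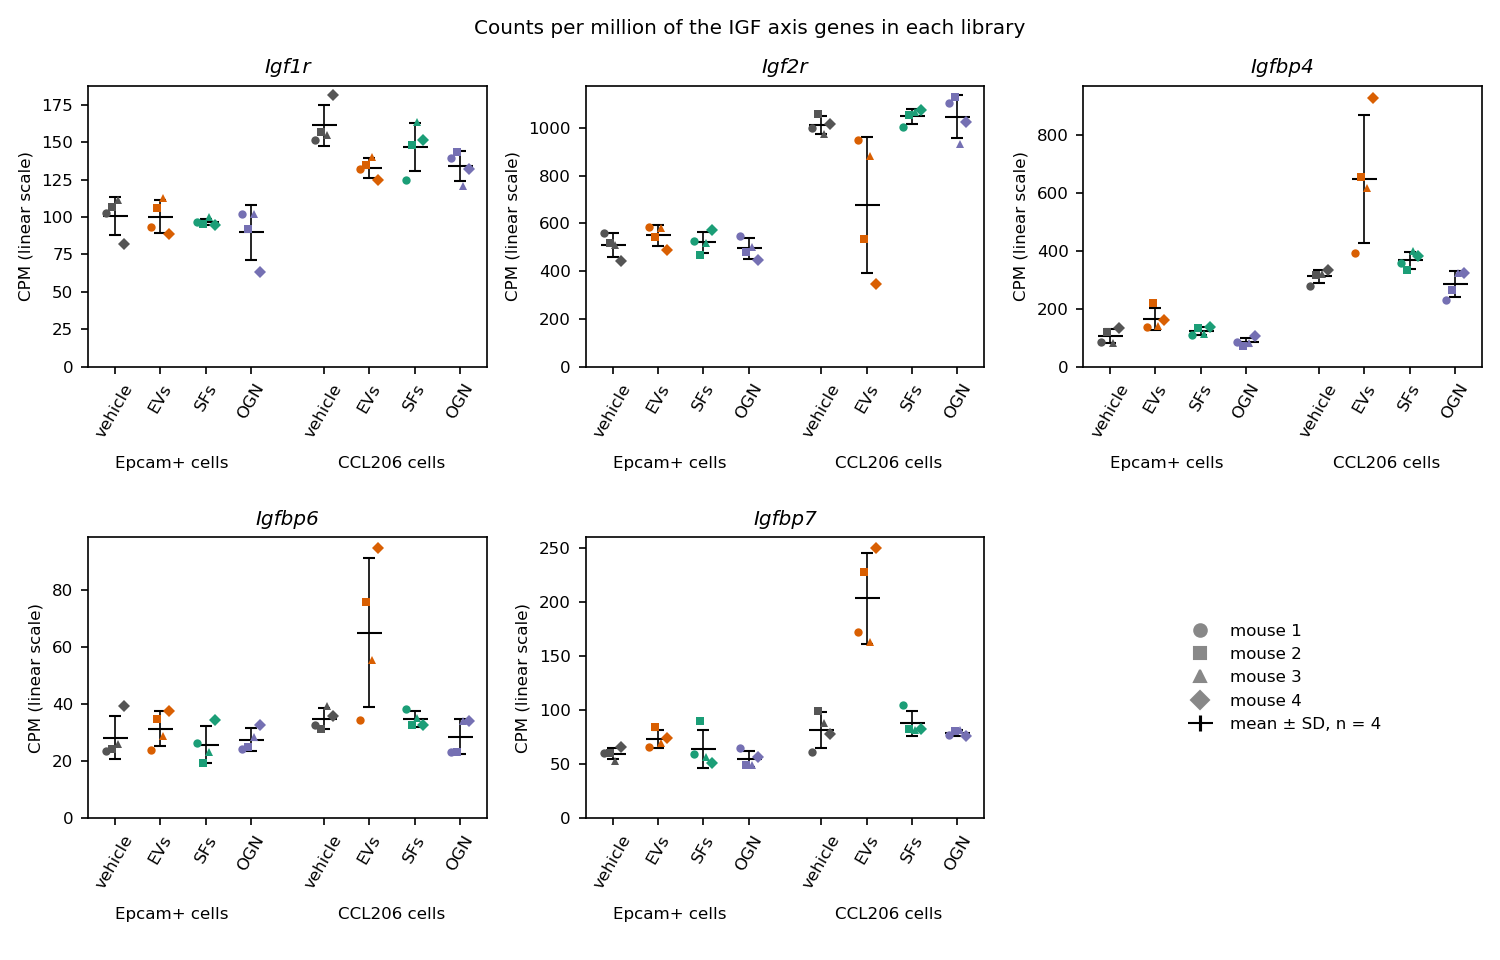
CPM (counts relative to the library total, linear axes from 0) of the 5 IGF axis genes in each of the 32 libraries, by fraction and treatment, with 1 symbol per mouse and the mean ± SD of 4 libraries as a black bar. The EV-treated fibroblast libraries lie highest for Igfbp4 and Igfbp7, up to 926 and 250 CPM, and spread widely for Igf2r, from 345 to 950 CPM.

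The main change in the IGF axis was seen with EVs in the fibroblasts. Igfbp4, Igfbp6 and Igfbp7 were significantly upregulated and Igf1r and Igf2r significantly downregulated, 5 calls of 5 beside 36% of all genes called in this comparison (19.8% higher and 16.2% lower). Only the rise of Igfbp4 and Igfbp7 passed the test without the EV-treated libraries of mice 2 and 4.

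Igfbp7 showed the largest rise. The vehicle-treated fibroblast libraries of mice 1 to 4 had 60.8, 99.4, 87.9 and 78.001 CPM, and the EV-treated ones had 173, 228, 163 and 250 CPM. Each EV-treated library was thus above every vehicle-treated one, by 1.86-fold to 3.20-fold within a mouse. This was a log2 fold change of 1.32 (SE 0.15, 95% CI 0.99 to 1.64, edgeR adjusted p = 0.00049). Without the EV-treated libraries of mice 2 and 4 it was 1.05 (edgeR adjusted p = 0.00021), and it passed the threshold in all 13 alternative settings, with a range of 1.05 to 1.60. Polr2b, whose exons overlap those of Igfbp7 on the other strand, had a log2 fold change of -0.10 (SE 0.11, edgeR adjusted p = 0.45).

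Igfbp4 rose as well. Its levels were 391, 656, 618 and 926 CPM in the EV-treated fibroblasts of mice 1 to 4, against 280, 316, 321 and 332 CPM with vehicle. The groups did not overlap, and the rise within a mouse was 1.40-fold to 2.79-fold. The log2 fold change was 1.01 (SE 0.14, 95% CI 0.71 to 1.32, edgeR adjusted p = 0.0015), and without the EV-treated libraries of mice 2 and 4 it was 0.68 (edgeR adjusted p = 0.00056). It passed the threshold in 12 of 13 settings, all but the one without mouse 2 (edgeR adjusted p = 0.052).

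The rise of Igfbp6 rested on fewer libraries. Its EV-treated fibroblast libraries had 34.4, 76.05, 55.5 and 94.8 CPM, and the vehicle-treated ones had 32.7, 31.2, 39.5 and 36.0 CPM. The EV-treated library of mouse 1 lay within the vehicle range and the other 3 above it. Over the 4 mice the log2 fold change was 0.87 (SE 0.21, 95% CI 0.43 to 1.31, edgeR adjusted p = 0.0080). Without the EV-treated libraries of mice 2 and 4 it was 0.31 (edgeR adjusted p = 0.25). Leaving out mouse 2 (0.71, edgeR adjusted p = 0.093) or mouse 4 (0.67, edgeR adjusted p = 0.071) also ended the call. Igfbp6 was called in 8 of 13 alternatives. It also lost the call with the trend on the median transcript length taken out and when only the 8 libraries compared were used.

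Both receptors were lower with EVs. Igf2r had 950, 533, 881 and 345 CPM in the EV-treated fibroblasts of mice 1 to 4, against 1001, 1060, 973 and 1015 CPM with vehicle. All 4 lay below the vehicle range, those of mice 2 and 4 far below it. The log2 fold change was -0.62 (SE 0.21, 95% CI -1.07 to -0.18, edgeR adjusted p = 0.030), and without these 2 libraries it was -0.13 (edgeR adjusted p = 0.36). It was not called without mouse 2 (-0.51, edgeR adjusted p = 0.20) or mouse 4 (-0.38, edgeR adjusted p = 0.15). Igf2r was called in 7 of 13 alternatives. It also lost the call with either length trend taken out and when only the 8 libraries compared were used.

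Igf1r had 132, 135, 140 and 125 CPM with EVs and 152, 157, 155 and 182 CPM with vehicle. The groups did not overlap, and the level with EVs was 0.686-fold to 0.905-fold that with vehicle within a mouse. The log2 fold change was -0.28 (SE 0.10, 95% CI -0.49 to -0.06, edgeR adjusted p = 0.042), and without the EV-treated libraries of mice 2 and 4 it was -0.21 (edgeR adjusted p = 0.24). It was not called without mouse 1 (edgeR adjusted p = 0.060), mouse 2 (edgeR adjusted p = 0.15) or mouse 4 (edgeR adjusted p = 0.27). With the trend on the median transcript length taken out, its sign turned to a log2 fold change of 0.43 (edgeR adjusted p = 0.019). The sign turned in this 1 of 13 alternatives only, and not with the trend on the shortest transcripts taken out.

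**Figure D2:**
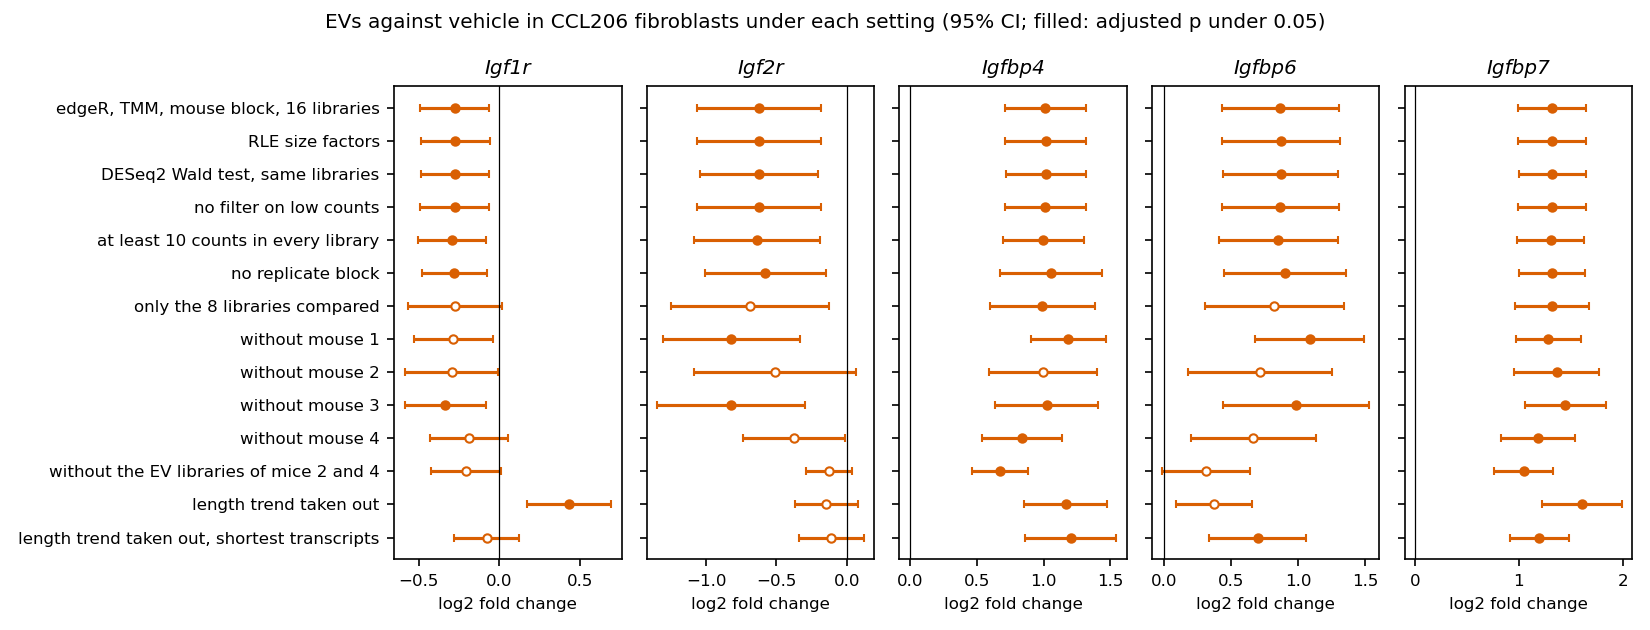
Log2 fold change of EVs against vehicle in CCL206 fibroblasts for the 5 genes (columns) under the main setting and 13 alternatives (rows), as points with 95% confidence intervals, filled where the adjusted p was under 0.05. Igfbp7 was called in every row, with values of 1.05 to 1.60. Igf1r changed sign, to 0.43, in 1 of the 13 alternatives, when the trend on the median transcript length was taken out.

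The position of each gene in the length trend was measured. The median transcript length was 1090.5 nt for Igfbp6, 3831 nt for Igfbp4, 5080 nt for Igfbp7, 8867.5 nt for Igf2r and 12464.5 nt for Igf1r, and only 65 of the 11617 genes with a length were as long as Igf1r or longer. In the EV-treated fibroblast library of mouse 4, a smooth fit over all genes gave a log2 difference from the vehicle mean of 0.84 at the length of Igfbp6, -0.26 at that of Igfbp4, -0.52 at that of Igfbp7, -0.99 at that of Igf2r and -1.25 at that of Igf1r. The values observed in that library were 1.45, 1.57, 1.64, -1.55 and -0.37 in the same order. At these median lengths, Igfbp6, Igf2r and Igf1r thus differed in the direction of genes of their length, Igf1r by less than these. Igfbp4 and Igfbp7 differed in the opposite direction. For Igfbp7 this depends on the length used. Its shortest coding transcript has 1133 nt, near the length of Igfbp6, where the fit was 0.84. In mouse 1, where the fit was flatter (0.17 at the length of Igfbp6 and -0.25 at that of Igf1r, with 0.19 and -0.36 in mouse 3), the observed values were -0.01 for Igfbp6, 0.33 for Igfbp4, 1.10 for Igfbp7, -0.09 for Igf2r and -0.29 for Igf1r.

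**Figure D3:**
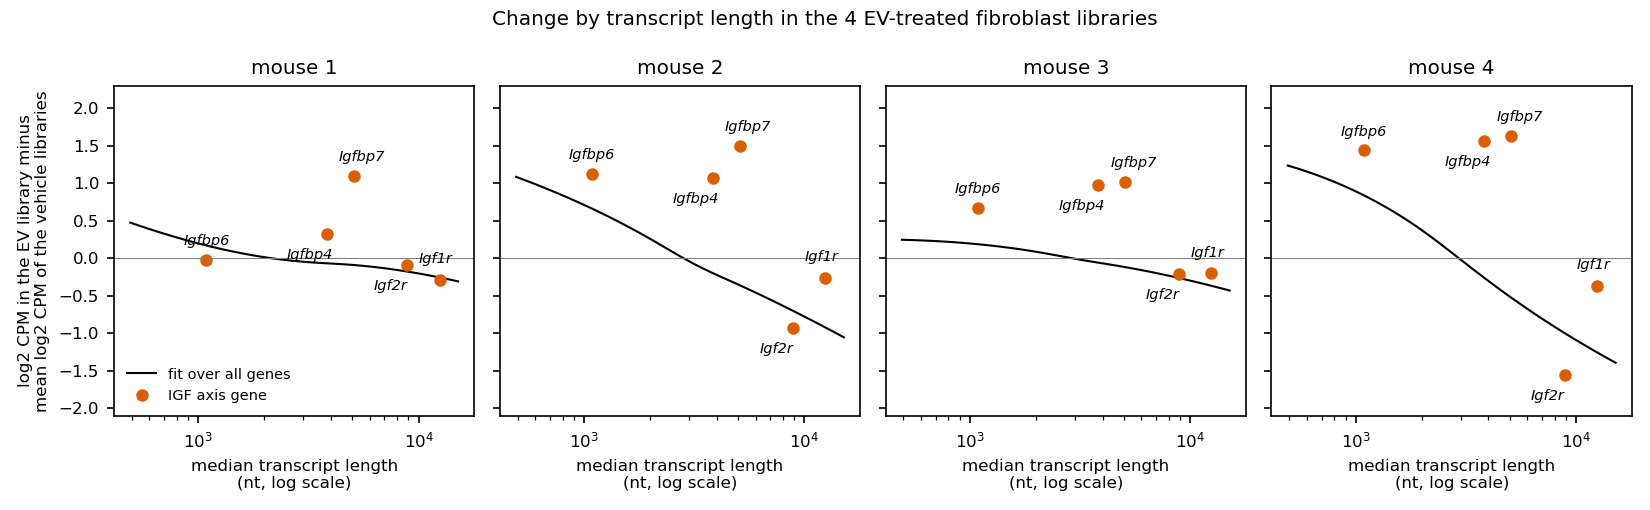
Log2 CPM in each EV-treated fibroblast library minus the mean log2 CPM of the 4 vehicle-treated ones, against median transcript length (log axis), for the 5 genes (points) and as a smooth fit over all genes (line). Igfbp7, drawn at its median length of 5080 nt, lies above the line in all 4 mice, at 1.64 against -0.52 in mouse 4. Its shortest coding transcript has 1133 nt. Igf2r lies below the line in mice 2 and 4.

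Markers of epithelium and of other cell types in the fibroblast fraction were followed beside these changes. In this comparison 36% of all genes were called (19.8% higher and 16.2% lower), so calls among markers are common here. The summed level of 7 epithelial markers was 249 to 634 CPM in vehicle-treated and 438 to 704 CPM in EV-treated fibroblasts, and 2 of the 7 were called higher (Krt18 and Krt19, keratins of simple epithelia) with Epcam itself at a log2 fold change of 0.48 (edgeR adjusted p = 0.31). With vehicle, Igfbp4 and Igfbp7 were called lower in Epcam+ cells than in fibroblasts and Igfbp6 was not called, as given above. What part of these Epcam+ levels came from fibroblasts left in that fraction was not tested. Of the 9 measured genes of the study's fibroblast list, 3 were called higher and 2 lower, and the 5 of a further fibroblast list gave 3 higher and 2 lower as well. Of the markers of alveolar type 2 cells (10 measured), 2 were called lower, as were 3 of 9 for alveolar type 1 cells and 1 of 6 for the airway, with 0 higher in each list. Both measured genes of the mesothelial list were called higher, but Krt19, already counted above, is among them, beside Msln. Their summed level was 101 to 153 CPM with vehicle and 162 to 359 CPM with EVs. In vehicle-treated Epcam+ libraries it was 2155 to 2299 CPM, so a change of this list cannot be told from one of epithelium. The part of these marker changes in the results was not tested.

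**Figure D4:**
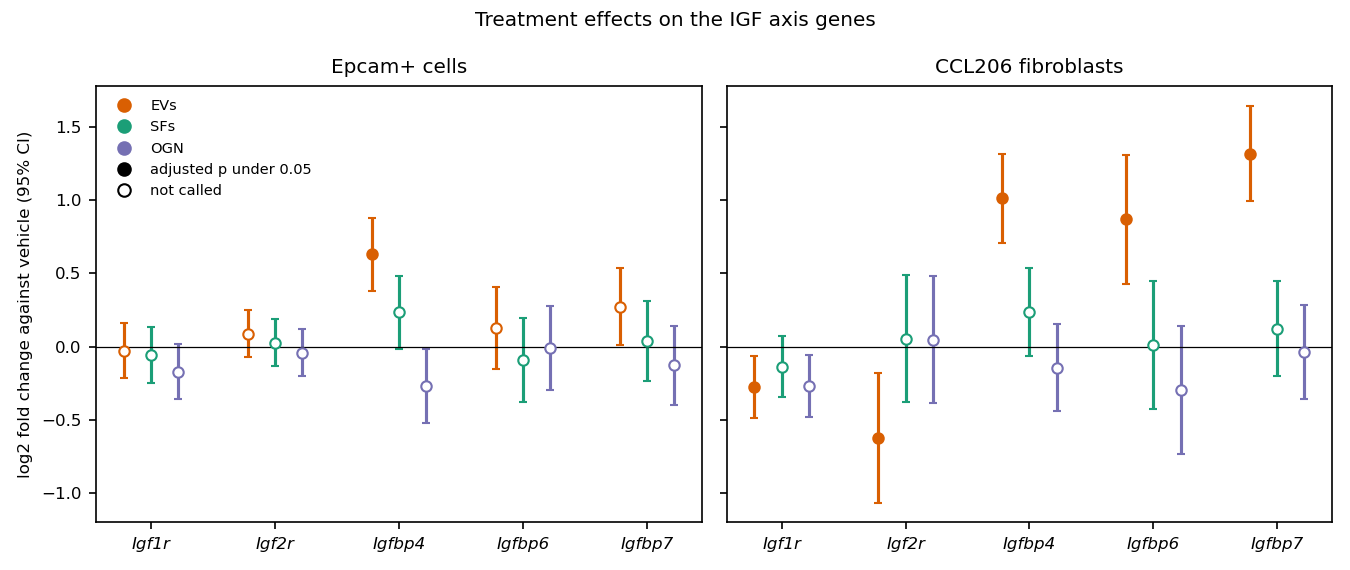
Log2 fold change of EVs, SFs and OGN against vehicle for the 5 genes in Epcam+ cells (left) and CCL206 fibroblasts (right), with 95% confidence intervals, filled where the adjusted p was under 0.05. The filled points are Igfbp4 with EVs in Epcam+ cells, at 0.63, and all 5 genes with EVs in fibroblasts, from -0.62 to 1.32.

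In Epcam+ cells, Igfbp4 was the only one of the 5 genes called with EVs, beside 0.888% of all genes called (0.538% higher). The EV-treated libraries of mice 1 to 4 had 136, 218, 142 and 161 CPM, against 85.3, 118, 82.7 and 134 CPM with vehicle. The groups did not overlap, and the level rose by 1.20-fold to 1.85-fold within a mouse. The log2 fold change was 0.63 (SE 0.12, 95% CI 0.38 to 0.88, edgeR adjusted p = 0.011). It passed in 9 of 13 alternatives. It was not called without the EV-treated libraries of mice 2 and 4 (0.58, edgeR adjusted p = 0.085), without mouse 1 (0.61, edgeR adjusted p = 0.12), without mouse 3 (0.59, edgeR adjusted p = 0.17) or without the mouse term in the model (0.63, edgeR adjusted p = 0.14).

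Fibroblast genes moved with Igfbp4 in this fraction. Of the 9 measured genes of the study's fibroblast list, 4 were called higher and 0 lower with EVs, with a median log2 fold change of 0.36 beside -0.0031 over all genes. Their summed level was 2239 to 3114 CPM in vehicle-treated and 3180 to 3770 CPM in EV-treated Epcam+ libraries, which did not overlap. Col1a2 had a log2 fold change of 0.53 (SE 0.09, edgeR adjusted p = 0.0058). Of the 5 measured genes of a further fibroblast list, 3 were called higher. Per 1000 CPM of the summed fibroblast list, Igfbp4 had 41.9 ± 7.9 CPM with vehicle and 46.9 ± 11.9 CPM with EVs in Epcam+ libraries (SD, n = 4), and these groups overlapped. In the fibroblasts themselves the same ratio was 26.1 ± 1.2 with vehicle and 67.5 ± 37.0 with EVs, where it ran from 33.5 to 118. The summed list there was 11459 to 12862 CPM with vehicle and 7851.5 to 12946 CPM with EVs. This ratio is given only with the EV-treated libraries of mice 2 and 4 included, and the length trend was not taken out of it. Airway markers were lower in the EV-treated Epcam+ libraries. Of the 6 measured, 4 were called lower and 0 higher (median log2 fold change -0.59), and their summed level was 2969 to 4684 CPM with vehicle and 1859 to 3056 CPM with EVs. The part of these marker changes in the rise of Igfbp4 was not tested.

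The transcripts whose pattern over the 16 Epcam+ libraries was most like that of Igfbp4 were Col1a1, Col5a2 and Col3a1, all fibrillar collagen chains. The measure was the root-mean-square distance of log2 CPM centred on each mouse, which was 0.10, 0.10 and 0.13 log2 units for these 3 of 11715 other genes. In the 16 fibroblast libraries the nearest were Dut (a dUTPase), Spr (sepiapterin reductase) and Tssc4, at a distance of 0.12 log2 units each. Igfbp4 was chosen for this comparison after its values were seen.

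The other 4 genes were not called with EVs in Epcam+ cells. Igfbp7 was at 53.1 to 65.6 CPM with vehicle and at 66.1 to 84.7 CPM with EVs, so that the groups did not overlap, but the log2 fold change of 0.27 did not pass the test (95% CI 0.01 to 0.53, edgeR adjusted p = 0.46). For Igfbp6 the log2 fold change was 0.13 (95% CI -0.15 to 0.41), for Igf2r 0.09 (95% CI -0.07 to 0.25) and for Igf1r -0.03 (95% CI -0.21 to 0.16).

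The effect of EVs differed between the fractions for 3 genes, beside 23.8% of all genes. The log2 effect in fibroblasts minus that in Epcam+ cells was 1.02 for Igfbp7 (SE 0.21, edgeR adjusted p = 0.0047), 0.71 for Igfbp6 (SE 0.25, edgeR adjusted p = 0.042) and -0.74 for Igf2r (SE 0.23, edgeR adjusted p = 0.025). Igfbp4 was called higher with EVs in both fractions, and its effects were not shown to differ (0.36, 95% CI -0.04 to 0.76, edgeR adjusted p = 0.18). Without the EV-treated libraries of mice 2 and 4, 0 of the 5 genes were called, with Igfbp7 at 0.77 (edgeR adjusted p = 0.081) and the other 4 at log2 differences of -0.22 to 0.17. Without mouse 4, 0 were called as well (Igfbp7 at 0.84, edgeR adjusted p = 0.053), and without mouse 2 only Igfbp7 (1.12, edgeR adjusted p = 0.022).

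OGN left the 5 genes without a call in either fraction by edgeR. The comparisons of EVs, SFs and OGN with vehicle share the vehicle-treated libraries. In Epcam+ cells, where 2.7% of all genes were called (1.48% higher and 1.22% lower), Igfbp4 had 84.2, 71.8, 80.4 and 105 CPM with OGN against 85.3, 118, 82.7 and 134 CPM with vehicle. It was lower in 4 of 4 mice, but the groups overlapped and the log2 fold change of -0.27 did not pass the test (95% CI -0.52 to -0.01, edgeR adjusted p = 0.35). The summed level of the study's fibroblast list in these libraries was 2070 to 2602 CPM with OGN against 2239 to 3114 CPM with vehicle, and its part in the value was not tested. Igf1r was also lower in 4 of 4 mice, with a log2 fold change of -0.17 (95% CI -0.36 to 0.02, edgeR adjusted p = 0.45). Its lowest library with OGN was that of mouse 4, at 63.4 CPM against 91.9 to 102 CPM in the other 3. That library also had short transcripts high and long ones low, with the smooth fit over all genes at 0.23 at the length of Igfbp6 and -0.27 at that of Igf1r, where Igf1r itself differed from the vehicle mean by -0.62. Without mouse 4 the log2 fold change of Igf1r was -0.13 (edgeR adjusted p = 0.73), and with the length trend taken out it was -0.12 (edgeR adjusted p = 0.59). For Igf2r (-0.04), Igfbp6 (-0.01) and Igfbp7 (-0.13) the 95% intervals lay between -0.40 and 0.27. At an unadjusted p under 0.05, 1 of the 5 genes passed in Epcam+ cells (Igfbp4), beside 1540 of all 11716 genes. In fibroblasts 1 passed (Igf1r), beside 1831 of all 11689 genes. DESeq2 called 0 of the 5 in both.

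In fibroblasts, 4.56% of all genes were called with OGN and Igf1r was the nearest to a call among the 5. It had 139, 144, 121 and 132 CPM with OGN and 152, 157, 155 and 182 CPM with vehicle. The groups did not overlap, and the level with OGN was 0.726-fold to 0.919-fold that with vehicle within a mouse. The log2 fold change was -0.27 (SE 0.10, 95% CI -0.48 to -0.06, edgeR adjusted p = 0.17). The same value was called when the EV-treated libraries were left out of the fit (-0.27, edgeR adjusted p = 0.026), when only the 8 libraries compared were used (edgeR adjusted p = 0.035) and when only the EV-treated libraries of mice 2 and 4 were left out (edgeR adjusted p = 0.020).

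Igfbp6 was lower with OGN in 4 of 4 mice, at 23.2, 23.3, 34.0 and 34.1 CPM, but its groups overlapped and the log2 fold change was -0.30 (95% CI -0.73 to 0.14, edgeR adjusted p = 0.55). Igfbp7 with OGN stayed within 76.0 to 81.9 CPM, inside the vehicle range of 60.8 to 99.4 CPM. Its log2 fold change was -0.04 (95% CI -0.36 to 0.29), that of Igfbp4 was -0.14 (95% CI -0.44 to 0.15) and that of Igf2r was 0.05 (95% CI -0.39 to 0.48). The effect of OGN was not shown to differ between the fractions for any of the 5 genes by edgeR, beside 0.551% of all genes. The differences lay between -0.29 (Igfbp6) and 0.12 (Igfbp4). At an unadjusted p under 0.05, 0 of the 5 passed, beside 813 of all 11805 genes, and DESeq2 called 0 of the 5.

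SFs also left the 5 genes without a call by edgeR or DESeq2 in either fraction. Of all genes, edgeR called 0.23% in Epcam+ cells (0.154% higher and 0.0768% lower) and 0.0599% in fibroblasts. None of the 5 passed an unadjusted p under 0.05, beside 913 of all 11716 genes in Epcam+ cells and 621 of 11689 in fibroblasts. Igfbp4 was higher with SFs in 4 of 4 mice in both fractions. In Epcam+ cells it had 107, 134, 113 and 135 CPM, with a log2 fold change of 0.23 (95% CI -0.02 to 0.49, edgeR adjusted p = 0.67). In fibroblasts it had 356, 332, 397 and 381 CPM, with a log2 fold change of 0.24 (95% CI -0.06 to 0.54, edgeR adjusted p = 1.0), and was called only when the fit held the 8 libraries compared (edgeR adjusted p = 0.030). The log2 fold changes of the other 4 genes lay between -0.14 and 0.12 over both fractions.

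OGN was also set against EVs and SFs directly. Igfbp4 was lower with OGN than with EVs in Epcam+ cells, with a log2 difference of -0.90 (SE 0.12, edgeR adjusted p = 8.3e-05) in a comparison in which 2.22% of all genes were called (1.55% lower and 0.666% higher). The level with OGN was 0.329-fold to 0.654-fold that with EVs within a mouse, and the groups did not overlap. This call held in all 13 alternatives, from -1.01 to -0.68. In these Epcam+ libraries 6 of the 9 genes of the study's fibroblast list were called lower with OGN than with EVs and 0 higher, and their part in the difference was not tested. Igfbp7 was lower in 4 of 4 mice without overlap, but its log2 difference of -0.40 did not pass the test (95% CI -0.66 to -0.14, edgeR adjusted p = 0.12).

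In fibroblasts, Igfbp4 (-1.16, SE 0.14), Igfbp6 (-1.17, SE 0.21) and Igfbp7 (-1.36, SE 0.15) were lower and Igf2r (0.67, SE 0.21) was higher with OGN than with EVs on the log2 scale, with edgeR adjusted p of 0.00013, 0.0015, 6.0e-05 and 0.021, beside 37.6% of all genes called (20.2% lower and 17.5% higher). The 3 binding proteins passed in all 13 alternatives and Igf2r in 7 of them, not without mouse 2 (edgeR adjusted p = 0.19), mouse 4 (edgeR adjusted p = 0.090) or the EV-treated libraries of mice 2 and 4 (0.17, edgeR adjusted p = 0.16). Igf1r, at about the same level with both, had a log2 difference of 0.01 (95% CI -0.21 to 0.22).

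Between OGN and SFs, Igfbp4 was lower with OGN in both fractions in 4 of 4 mice with groups that did not overlap. In Epcam+ cells the log2 difference was -0.50 (SE 0.12, edgeR adjusted p = 0.031), beside 1.91% of all genes called (1.09% lower and 0.819% higher), and it passed in 7 of 14 alternatives, not without mouse 1 (edgeR adjusted p = 0.11), mouse 2 (edgeR adjusted p = 0.070) or mouse 3 (edgeR adjusted p = 0.15), nor without the mouse term (edgeR adjusted p = 0.19). Of the study's fibroblast list, 5 of the 9 genes were called lower and 1 higher in the same comparison. In fibroblasts the log2 difference was -0.38 (SE 0.14, edgeR adjusted p = 0.21), beside 2.79% of all genes called. Without the EV-treated libraries in the fit it was called at -0.37 (edgeR adjusted p = 0.0011), and likewise with only the 8 libraries compared or without the EV-treated libraries of mice 2 and 4.

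Over all 8 groups, the level of Igfbp4 ran from 85.4 ± 14.2 CPM (Epcam+ cells with OGN) through vehicle (105 ± 25.1), SFs (122 ± 14.2) and EVs (164 ± 37.7) to fibroblasts with OGN (285 ± 46.2), vehicle (312 ± 22.5), SFs (367 ± 28.7) and EVs (648 ± 220). Neighbours in this order overlapped, except SFs and EVs in Epcam+ cells (highest 134.91 and lowest 135.52 CPM) and, between the fractions, Epcam+ cells with EVs and fibroblasts with OGN (highest 218 and lowest 228 CPM). Igf2r in Epcam+ cells stayed between 441 and 584 CPM and Igf1r between 63.4 and 113 CPM whatever the treatment. Igfbp6 in Epcam+ cells lay between 19.3 and 39.4 CPM. Igfbp7 in Epcam+ cells lay between 49.1 and 89.5 CPM.

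The make-up of the 3 measured binding proteins was described as the share of each in their summed level per length. In vehicle-treated Epcam+ cells the share was 41.9 ± 3.9% for Igfbp4, 39.6 ± 4.1% for Igfbp6 and 18.4 ± 2.4% for Igfbp7 (SD, n = 4). In vehicle-treated fibroblasts it was 63.0 ± 1.4%, 24.7 ± 2.0% and 12.3 ± 2.0%. Igfbp4 thus held the larger share in fibroblasts, in each of the 4 libraries (61.0% to 64.2% against 38.7% to 47.5%). With EVs the share of Igfbp4 was 62.7 ± 2.8% in fibroblasts and 49.6 ± 3.4% in Epcam+ cells, and that of Igfbp7 in fibroblasts was 15.6 ± 3.4%. These shares are a description. With the shortest coding transcript in place of the median, Igfbp7 held 46.8 ± 4.0% in vehicle-treated Epcam+ cells and 35.4 ± 4.1% in fibroblasts, and the order of the 3 changed.

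**Figure D5:**
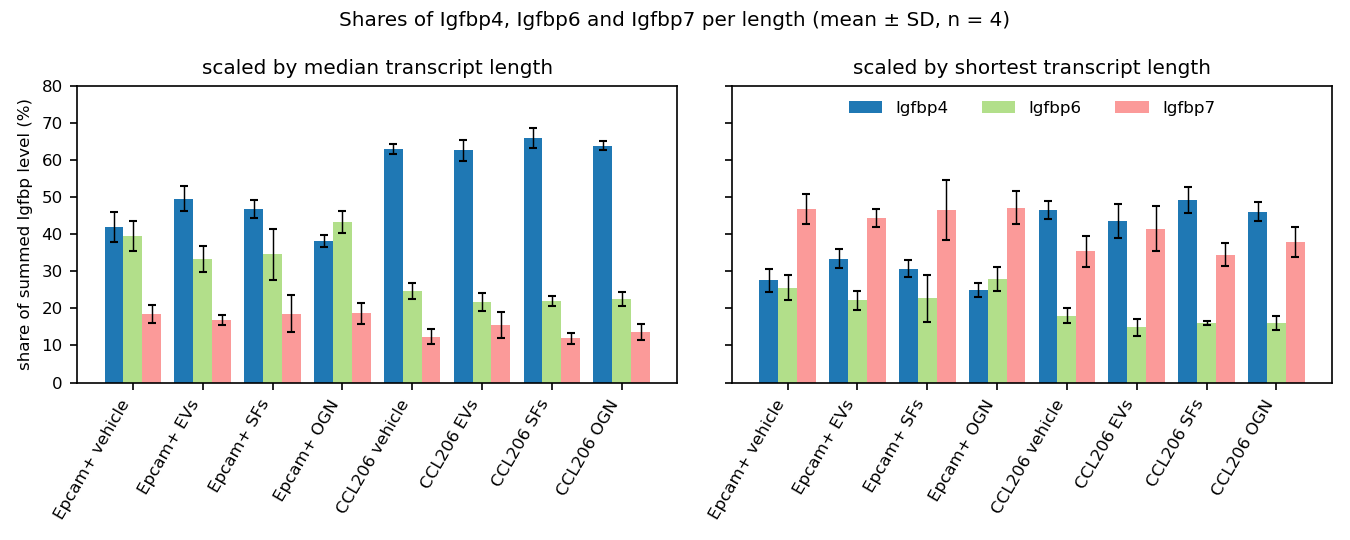
Share (%) of Igfbp4, Igfbp6 and Igfbp7 in their summed CPM per length in the 8 groups, as means of 4 libraries with SD, scaled by the median (left) or the shortest (right) coding transcript length. On the left Igfbp4 holds 63.0% in vehicle-treated fibroblasts and 41.9% in vehicle-treated Epcam+ cells, and on the right Igfbp7 is larger than on the left in all 8 groups.

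Beyond the 5 genes, 90 further genes of the IGF system and its signalling cascades were listed by role, of which 78 were tested. With OGN, 4 of the 78 (5.13%) were called in Epcam+ cells beside 2.7% of all genes, and 9 (11.5%) in fibroblasts beside 4.56%. Leaving out each mouse gave 2 to 3 in Epcam+ cells, 2 of them without mouse 1, 2 or 4 or without the mouse term. In fibroblasts it gave 5 to 9, with 5 without mouse 2 and 6 without mouse 3. The 9 became 17 with only the 8 libraries compared, 21 without the EV-treated libraries and 20 without those of mice 2 and 4. With SFs, 0 were called in either fraction. With EVs, 0 were called in Epcam+ cells and 35 (44.9%) in fibroblasts beside 36%, 13 higher and 22 lower. Without the EV-treated libraries of mice 2 and 4, the last count fell to 3 higher and 4 lower.

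Among the IGFBP proteases and their inhibitors (15 tested), OGN changed 3 in fibroblasts. Stc1, stanniocalcin-1, an inhibitor of PAPP-A proteases, rose from 1.67 to 3.06 CPM with vehicle to 10.5 to 33.1 CPM with OGN. The groups were far apart, with a log2 fold change of 2.93 (SE 0.22, edgeR adjusted p = 8.9e-07) on counts of 18 to 31 per vehicle-treated library. Plau, the urokinase plasminogen activator, fell from 54.0 to 78.5 CPM to 29.6 to 39.8 CPM (log2 fold change -0.99, SE 0.15, edgeR adjusted p = 0.00059). Htra1, a secreted serine protease, fell by 0.52 on the log2 scale (SE 0.09, edgeR adjusted p = 0.0027). In Epcam+ cells 0 of these 15 were called with OGN, where Stc1 was at 2.51 to 4.14 CPM with vehicle and 6.03 to 7.07 CPM with OGN, a log2 fold change of 0.999 (edgeR adjusted p = 0.13). The OGN effect differed between the fractions for Stc1 (difference 1.94, SE 0.38, edgeR adjusted p = 0.0077) and Plau (-1.20, SE 0.20, edgeR adjusted p = 0.0020). For Plau this call held in all 13 alternatives. For Stc1 it held in 8 of 12 and was lost without mouse 1, 2 or 3 and without the mouse term, at differences of 1.49 to 2.21 over the 12.

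Of the IGFBP relatives and partners (5 tested), Ccn1, a matricellular protein, moved in opposite directions with OGN. It rose in Epcam+ cells from 197 to 320 CPM to 335 to 444 CPM (log2 fold change 0.58, SE 0.10, edgeR adjusted p = 0.00080) and fell in fibroblasts from 63.6 to 247 CPM to 49.2 to 84.6 CPM (-0.96, SE 0.23, edgeR adjusted p = 0.023), where the groups overlapped. The difference of -1.55 between the fractions passed its test (SE 0.27, edgeR adjusted p = 0.0023) and did so in 10 of 13 alternatives, not without mouse 1, without mouse 2 or without the mouse term (-1.87 to -1.21 over the 13). Ccn4, another member of this family, fell in fibroblasts by 0.57 on the log2 scale (SE 0.13, edgeR adjusted p = 0.013). Ccn1 in fibroblasts was called in 11 of 14 alternatives, and Ccn4 there in 12.

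Further down the pathway, the lists held 16 adaptors, 28 genes of PI3K, AKT, FOXO and MTOR signalling and 12 of RAS and MAPK signalling. With OGN, 1 gene of each list was called in Epcam+ cells, beside 2.7% of all genes, and 0, 1 and 3 in fibroblasts, beside 4.56%. In Epcam+ cells Irs1, the main adaptor of IGF1R and the insulin receptor, fell by 0.49 on the log2 scale (SE 0.12, edgeR adjusted p = 0.019) and Sesn3, a sestrin that restrains MTORC1, fell by 0.52 (SE 0.13, edgeR adjusted p = 0.023). In these Epcam+ libraries 4 of the 6 measured airway markers were called lower and 0 higher with OGN (median log2 fold change -0.55), as were 2 of 9 alveolar type 1 markers, while the study's fibroblast list gave 2 lower and 1 higher and its alveolar type 2 list 1 lower and 2 higher. Their part in the changes of Irs1 and Sesn3 was not tested. Map2k1, the kinase MEK1 of the RAS and MAPK list, rose in both fractions, by 0.40 in Epcam+ cells (SE 0.09, edgeR adjusted p = 0.011) and by 0.68 in fibroblasts (SE 0.09, edgeR adjusted p = 0.00022). In fibroblasts, Spry2 and Spry4, feedback inhibitors of receptor tyrosine kinase signalling, fell by 0.89 (SE 0.15, edgeR adjusted p = 0.0015) and 1.02 (SE 0.21, edgeR adjusted p = 0.0093), and Foxo1, a transcription factor restrained by AKT, fell by 0.56 (SE 0.14, edgeR adjusted p = 0.038). Of these, Irs1 was called in 8, Sesn3 in 9 and Foxo1 in 8 of 14 alternatives, and Spry2 and Map2k1 in fibroblasts in all 14.

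With EVs in fibroblasts, where 36% of all genes were called (19.8% higher and 16.2% lower), both tested receptors outside the 5 genes were lower, Insr, the insulin receptor, at -0.79 (SE 0.23, edgeR adjusted p = 0.016) and Ghr, the growth hormone receptor, at -0.33 (SE 0.08, edgeR adjusted p = 0.010) on the log2 scale. Insr was called in 7 of 13 alternatives (-1.02 to -0.26) and Ghr in 8 (-0.44 to -0.15). Of the 15 proteases and inhibitors, 6 were higher and 1 lower, among them Timp1, an inhibitor of metalloproteases (0.84, SE 0.16, edgeR adjusted p = 0.0037), and Ctsd, the lysosomal protease cathepsin D (0.64, SE 0.16, edgeR adjusted p = 0.0087). Stc1, which rose with OGN, was also higher with EVs (0.97, SE 0.26, edgeR adjusted p = 0.012), on counts of 14 to 27 per EV-treated library. Timp1 was called in 12 of 13 alternatives (0.28 to 0.98), Ctsd in 9 (0.22 to 0.78) and Stc1 in 9 (0.87 to 1.22). Of the 28 genes of the PI3K, AKT, FOXO and MTOR list, 3 were higher and 12 lower, for example Pik3r1, a regulatory subunit of PI3K (-0.61, SE 0.15, edgeR adjusted p = 0.0098), which was called in 9 of 13 alternatives (-0.79 to -0.26). With the trend on the median transcript length taken out, the 22 lower calls among the 78 genes became 9 and the 13 higher ones 12. With the trend on the shortest transcripts taken out, they became 17 lower and 15 higher. Without mouse 2, 0 of the 78 were called.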

How the data were processed

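RNA of 32 libraries (Epcam+ cells and CCL206 fibroblasts, 4 treatments, 4 mice) was analysed from 1 table of counts per gene, which the authors deposited as whole numbers without normalisation. Per the labels, reads were trimmed with Trimmomatic 0.30 and analysed with DESeq2 1.34.0 on GRCm39, whereas the study's methods name GRCm38. The aligner, the counter, the annotation and the use of strand are not given in the sources used here.

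Counts were fitted with edgeR 4.0.16 in R 4.3.3 (quasi-likelihood test, TMM, filterByExpr) with treatment and mouse as terms, over the 16 libraries of a fraction (11716 genes in Epcam+ cells and 11689 in fibroblasts) or all 32 (11805 genes) for comparisons between the fractions. Adjusted p-values are Benjamini-Hochberg over all genes tested, called under 0.05. Pairing follows the labels, in which a number names the mouse. Deviations of same-mouse libraries correlated with a mean r of 0.091 to 0.226 over the 6 comparisons with vehicle. For fibroblasts the number names only the co-culture. Intervals and SEs come from the fit. No 2 of the 48 replicate pairs were identical.

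The 9 genes, the lists and the tests were chosen with earlier results of these data known. All 9 genes were to be named, and of each further list at most the 4 genes with the smallest p past the threshold in a comparison with vehicle. A single result of these lists is not reported here. Genes like Igfbp4 were chosen after its values were seen, because none of the 5 genes was called with OGN. Transcript lengths are from GENCODE M39 and cover 98.3% of genes. They took the place of RefSeq lengths. On simulated data for OGN, the fit recovered 182 of 199 changed genes in Epcam+ cells and called 13 others (11653 genes tested). In fibroblasts it recovered 184 of 199 and called 13 others (11620 genes tested). Recovery was not split by the size of the change. For changes as small as those of the 5 genes with OGN against vehicle, recovery was not tested. Alternatives were DESeq2 1.42.0, RLE size factors, other filters, no mouse term, a length trend (spline with 4 degrees of freedom) taken out, fewer libraries and leaving out each mouse. Added after seeing the data were the fit without the EV-treated libraries of mice 2 and 4, and the trend and shares with the shortest transcripts.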

Additional observations from a re-analysis of the deposited data

Results flagged for a closer look

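For Igfbp7 in SF-treated fibroblasts, the library of mouse 1, at 105 CPM, stood apart from the other 3, at 81.2 to 82.6 CPM, with a gap of 0.93 of the whole range, which is above the 95% critical value of Dixon's test. It was the 1 such library among 40 groups of 4, and chance alone is expected to flag some of so many groups.

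The effect of EVs differed between fibroblasts and Epcam+ cells for 3 genes by a test of the difference itself. The log2 effect in fibroblasts minus that in Epcam+ cells was -0.74 for Igf2r, the mannose 6-phosphate receptor, 0.71 for Igfbp6 and 1.02 for Igfbp7 (edgeR adjusted p of 0.025, 0.042 and 0.0047). Without the EV-treated libraries of mice 2 and 4 these were -0.22, 0.17 and 0.77, and 0 of the 3 passed (edgeR adjusted p of 0.35, 0.73 and 0.081).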

How the results depend on the processing

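The EV-treated fibroblast libraries held 3105312 to 7605452 counts, and the length trend was steeper in 2 of them than in the other 2. With the trend on the median transcript length taken out, the sign of Igf1r turned in fibroblasts for EVs against vehicle (0.43). It also turned for OGN against EVs there (-0.64) and for the EV effect between fractions (0.50). For the first and the last it turned in 1 of 13 alternatives, and so not with the shortest transcripts. The cause was not tested. For EVs against vehicle in fibroblasts, the 5 calls among the 5 genes became 3 with the trend taken out by median or shortest transcripts. By the median these were Igfbp4, Igfbp7 and Igf1r, the last with its sign turned. By the shortest transcripts they were Igfbp4, Igfbp6 and Igfbp7. The 5 calls became 2 with only the 8 libraries compared, 2 without the EV libraries of mice 2 and 4, and 1 to 5 when leaving out each mouse. The 3 calls between fractions became 1 with only the libraries compared, 0 without the EV libraries of mice 2 and 4, and 0 to 3 leaving out each mouse. In Epcam+ cells, the replicate block (mouse as a term) mattered: without it the 1 call for EVs against vehicle and the 1 for OGN against SFs became 0, the difference of the EV effect on Igfbp6 between the fractions was no longer called (edgeR adjusted p = 0.079), and no other call among the 5 genes changed. The first was also 0 without the EV libraries of mice 2 and 4, the second also 0 with either length trend taken out or only the 8 libraries compared, and both were 0 to 1 leaving out each mouse. In fibroblasts, 0 calls became 1 for OGN against vehicle (Igf1r) and OGN against SFs (Igfbp4) with only the 8 libraries compared, without the EV-treated libraries, or without those of mice 2 and 4, and for SFs against vehicle (Igfbp4) with only the 8 libraries compared. The causes were not tested. Over all genes, the 4207 calls for EVs in fibroblasts became 387 with only the 8 libraries compared, 645 without the EV libraries of mice 2 and 4, and 19 to 4556 leaving out each mouse. The 533 for OGN there became 863 with DESeq2, 803 with the length trend taken out, 1370 with only the 8 libraries, 1770 without the EV-treated libraries and 1620 without those of mice 2 and 4. In Epcam+ cells the 316 for OGN became 198 without the mouse term and 185 with only the 8 libraries, the 104 for EVs became 201 with DESeq2, 9 without the mouse term and 21 without the EV libraries of mice 2 and 4, and the 27 for SFs became 54 with DESeq2, 6 without the mouse term and 42 with only the 8 libraries. For OGN against EVs, 260 in Epcam+ cells became 413 with DESeq2 and 114 without the EV libraries of mice 2 and 4, and 4397 in fibroblasts became 912 with only the 8 libraries and 1554 without those of mice 2 and 4. For OGN against SFs, 224 in Epcam+ cells became 388 with DESeq2, 74 without the mouse term, 77 with only the 8 libraries and 145 without the EV-treated libraries, and 326 in fibroblasts became 609, 1282 and 1290 with DESeq2, only the 8 libraries and no EV-treated libraries, 543 with the length trend taken out and 1156 without the EV libraries of mice 2 and 4. The 7 for SFs in fibroblasts became 32 with DESeq2, 11 or 12 with a length trend taken out, 302 with only the 8 libraries, 108 without the EV-treated libraries and 75 without those of mice 2 and 4. Between fractions, the 2815 for EVs became 1413 with the length trend taken out, 844 with only the libraries compared and 33 without the EV libraries of mice 2 and 4, the 65 for OGN became 144 with DESeq2, 35 without the mouse term, 108 with the length trend taken out and 168 without those libraries, and the 0 for SFs became 2 with DESeq2 and 32 with only the libraries compared.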
